A study of Mus musculus with 10 samples.

Results

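Serotonin (5-HT) receptors were examined here as mRNA in hippocampal synaptoneurosomes, a tissue fraction enriched in synaptic endings, of C57Bl/6J mice. The set was fixed by name as Htr1a, Htr1b, Htr2a, Htr2c, Htr3a, Htr4, Htr5a, Htr5b, Htr6 and Htr7, and all 10 genes were found by identifier among the 22255 genes of the deposited table. All 10 passed the filter on low counts, as did 14358 genes in all. The wild-type mice had received AM6545, a CB1 cannabinoid receptor antagonist known for its poor entry into the brain, or vehicle, over a sub-chronic course, and 5 libraries stood for each group. Dose, age and sex are not given in the sources used here, nor is whether a library held RNA of 1 animal or of a pool, so n counts libraries and the spread between them may be partly technical.

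Serotonin reaches the hippocampus along axons from the raphe nuclei and acts on a family of receptors with different transduction. The products of Htr1a, Htr1b and Htr5a couple to inhibitory Gi/o proteins, and those of Htr2a and Htr2c to Gq and phospholipase C. Those of Htr4, Htr6 and Htr7 couple to Gs and adenylyl cyclase. Htr5b, the paralogue of Htr5a, was placed in the Gi/o class here, an assignment that was not tested. Htr3a encodes a subunit of a serotonin-gated cation channel, the only ion channel among serotonin receptors, and in the hippocampus it is known as a marker of a class of GABAergic interneurons that often carry the CB1 receptor. Htr2c is known both from neurons and, at high level, from the epithelium of the choroid plexus, and its transcript is a classic substrate of A-to-I editing and of alternative splicing.

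In short, all 10 receptors were measured well above the counting floor, and none of them passed the test for a difference between AM6545 and vehicle. Htr5b had the lowest unadjusted p, with a fitted level 0.767 times that of vehicle. Htr2c levels followed choroid plexus markers from library to library. Within Htr2c, the estimate for Htr2c-201 was lower in 4 of 5 AM6545 libraries than in any vehicle library, or in 3 of 5 when Htr2c-202, which encodes the same protein, was added to it. Htr2c-201 did not pass the test over all transcripts.

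The splice segments below separate the receptor transcripts on which the transcript results turn. They were read from GENCODE M21 transcripts (GRCm38), 5′ to 3′ on the coding strand, with 20 flanking bases in lower case, and capitals mark the bases that 1 transcript has and the other lacks. Apart from a few bases at their ends, Htr2c-201 and Htr2c-207 differ by 95 bases at chrX:147169676-147169770 (plus strand), the 3′ end of a coding exon, which hold the known editing sites. Use of an upstream splice donor removes them, and the annotated reading frame shrinks from 459 to 172 codons.
Htr2c-201: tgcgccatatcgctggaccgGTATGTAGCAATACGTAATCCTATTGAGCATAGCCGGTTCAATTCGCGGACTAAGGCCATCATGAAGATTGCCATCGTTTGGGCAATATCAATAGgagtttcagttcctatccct
Htr2c-207: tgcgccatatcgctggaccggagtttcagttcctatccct
Htr3a-201 and Htr3a-202 differ by 18 coding bases at chr9:48899991-48900008 (minus strand), which give frames of 489 and 483 codons. With lengths of 2082 and 1987 bases, they also differ outside the coding sequence.
Htr3a-201: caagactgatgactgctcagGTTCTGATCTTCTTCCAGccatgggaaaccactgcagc
Htr3a-202: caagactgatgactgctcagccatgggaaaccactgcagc
The Htr7 435-codon form keeps 5 bases at chr19:35969304-35969308 (minus strand) that the 448-codon form lacks. Its annotated coding sequence ends within them, after 1 base. The Htr7 decay form, annotated as a target of nonsense-mediated decay, has an inserted exon of 58 bases at chr19:36041555-36041612 (minus strand).
Htr7 448-codon form: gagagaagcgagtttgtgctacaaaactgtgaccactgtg
Htr7 435-codon form: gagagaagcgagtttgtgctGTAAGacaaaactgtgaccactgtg
Htr7 decay form: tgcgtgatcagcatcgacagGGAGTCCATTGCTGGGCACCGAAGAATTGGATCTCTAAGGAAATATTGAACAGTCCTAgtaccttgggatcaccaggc

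Library totals ranged from 18106112 to 25899794 estimated counts. A floor of 3 counts in a library therefore lay between 0.116 and 0.166 CPM (counts scaled to library size). Summed markers of excitatory neurons were at 2300 to 2802 CPM in vehicle and 2484 to 2768 CPM in AM6545 libraries, and interneuron markers at 679 to 915 and 697 to 943 CPM. Oligodendrocyte markers, at 14520 to 21060 and 12340 to 28350 CPM, showed that the fraction also held RNA of other cells. The choroid plexus list varied most, at 486 to 10450 CPM in vehicle and 2312 to 8068 CPM in AM6545 libraries, with vehicle replicate 4 far below the others. In bulk RNA of this kind, fewer cells of a type and less RNA per cell cannot be told apart.

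None of the 10 receptors was at or near the floor. The fewest counts in any library were 33, for Htr6, and the most were 786, for Htr1a. A receptor counted as near the floor if its median over the 10 libraries was under 10 counts, and the lowest medians were 47 counts for Htr6 and 52.5 for Htr5a. Htr1b, with a median of 125.5 counts, shared 852 exonic bases with the antisense gene D430036J16Rik on the opposite strand, and use of strand in counting is not given in the sources used here, so its value is uncertain. No exon of another gene overlapped the other 9 receptors in GENCODE M21.

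To compare genes, estimated counts were divided by transcript length and scaled to a common total (TPM). On this scale Htr5b was the most abundant receptor in vehicle libraries, at 18.95 ± 2.44 TPM (SD, n = 5). Mice and rats have a working Htr5b gene, while its human counterpart is a pseudogene. Htr3a followed at 15.3 ± 0.594 TPM, and the vehicle ranges of these 2 genes, 16.1 to 22.2 and 14.3 to 15.8 TPM, did not overlap. Over all 10 libraries, however, Htr5b exceeded Htr3a in only 6. The order rests on annotated lengths, such as 1935 bases for Htr5b and 4484 for Htr1a, and the models counted may differ. Without division by length, Htr1a was above Htr5b in vehicle libraries, with means of 26.8 and 19.2 CPM.

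Htr1a, the main inhibitory receptor of pyramidal cells, had 11.6 ± 3.12 TPM and Htr7 10.04 ± 1.90 TPM in vehicle libraries (SD, n = 5 each), with overlapping ranges. Htr2c at 6.93 ± 1.31 TPM and Htr4 at 6.33 ± 1.61 TPM formed the next pair, and Htr2c was the higher of the pair in 5 of 10 libraries. Htr2a, with 3.56 ± 0.869 TPM, was below Htr4 in 10 of 10 libraries. Htr6 at 2.41 ± 0.546 TPM and Htr1b at 2.32 ± 0.544 TPM could not be ordered. Htr5a, the paralogue of Htr5b, was the lowest at 0.919 ± 0.126 TPM, and its range was apart from that of Htr1b.

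By transduction class, the Gi/o class held 43.1 ± 1.33% of the summed receptor level per length in vehicle and 39.5 ± 2.18% with AM6545 (SD, n = 5 each). Htr5b, whose placement in this class was not tested, made up 18.95 of its 33.8 TPM in vehicle. With AM6545 it made up 14.9 of 30.7 TPM (means). The Gs-coupled receptors held 23.7 ± 2.79% and 26.6 ± 1.47%, Htr3a 19.8 ± 2.56% and 21.5 ± 2.28%, and the Gq-coupled pair 13.4 ± 1.91% and 12.4 ± 2.37%. These class shares are descriptions of sums over few genes and were not tested.

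**Figure D1:**
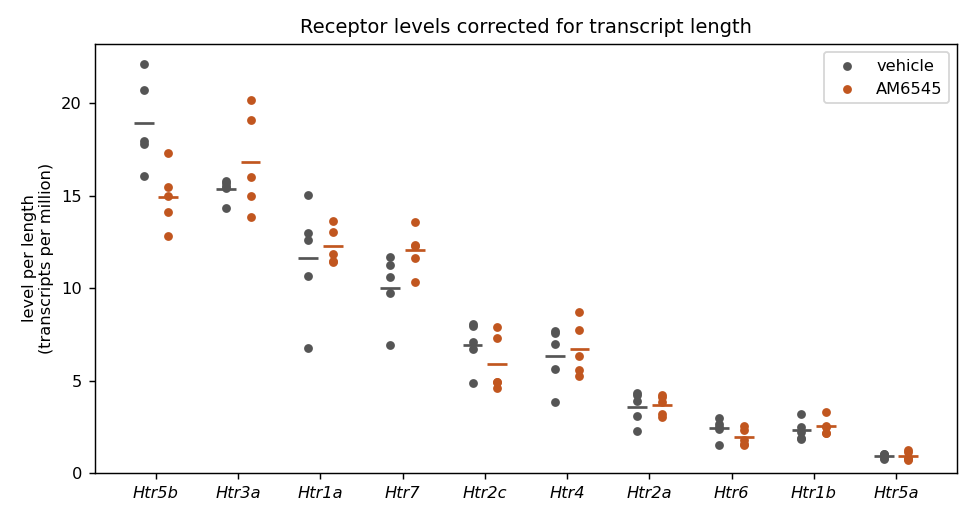
Level per transcript length (TPM, linear axis) of the 10 receptors in each library, ordered by the vehicle mean; points are libraries, short lines are group means, grey is vehicle and orange is AM6545. Htr5b and Htr3a lie highest, with vehicle means of 18.95 and 15.3 TPM, and Htr5a lies lowest at 0.919 TPM.

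Of 4 further serotonin receptor genes in the table, Htr1f, another Gi/o-coupled receptor, had 74 to 134 counts per library and 3.52 ± 0.598 TPM in vehicle (SD, n = 5), close to Htr2a. Its log2 fold change was -0.08 (edgeR unadjusted p = 0.626). Htr1d had 3 to 21 counts, Htr2b 0 to 5 counts and Htr3b, the second channel subunit, 0 to 4 counts, so these 3 genes lay at the floor and did not pass the filter. An exon of Psmd1 overlaps Htr2b on the opposite strand.

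The comparison of AM6545 with vehicle asked whether treatment was accompanied by a different receptor mRNA content. By edgeR's quasi-likelihood test 0 of the 10 receptors passed the threshold of 0.05 after Benjamini-Hochberg adjustment, and each adjusted p was 0.9998. The background over all tested genes was also 0% (0 of 14358). At an unadjusted p under 0.05 there was 1 receptor with edgeR, 1 with the DESeq2 Wald test and 2 with limma-voom, beside 1.88%, 1.92% and 4.92% of all tested genes with these tools. After adjustment 0 receptors passed with any of the 3. Of the 10 fitted log2 fold changes, 6 were above 0 and 4 below, with a median of 0.02 and a range of -0.38 to 0.23, beside a median of -0.0057 over all tested genes. In CPM scaled by TMM (a correction for library composition), the groups overlapped for all 10 receptors, and over all tested genes 0.293% had groups that did not overlap.

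Htr5b (ENSMUSG00000050534.9), on chromosome 1 (121509842 to 121528465, minus strand, GRCm38), had 20.4, 16.1, 21.4, 22.7 and 15.6 CPM in vehicle replicates 1 to 5. In AM6545 replicates 1 to 5 it had 13.6, 15.04, 15.7, 17.02 and 12.4 CPM. Replicates 1, 2 and 5 of AM6545 lay below every vehicle library, while the other 2 fell within the vehicle range. The means were 19.2 ± 3.20 and 14.7 ± 1.79 CPM (SD, n = 5 each), on 251 to 554 counts per library. The fitted log2 fold change was -0.38 (SE 0.13), with a 95% interval of -0.66 to -0.11 (edgeR unadjusted p = 0.00888, adjusted p = 0.9998). Of all tested genes, 0.738% had an unadjusted p under 0.05 and a lower level in AM6545. The log2 fold change stayed negative, between -0.45 and -0.32, when any 1 library was left out, with an edgeR unadjusted p of 0.00349 to 0.0324.

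The other receptors of the Gi/o class differed less. Htr1a, on chromosome 13 with a single exon, had 17.9 CPM in vehicle replicate 1 and 25.4 to 31.4 CPM in the other 4 vehicle libraries. The AM6545 libraries had 25.7 to 30.6 CPM and thus lay within the vehicle range. The log2 fold change of Htr1a was 0.07 (95% interval -0.21 to 0.35, edgeR unadjusted p = 0.621), and it was -0.05 without vehicle replicate 1. Htr1b, on chromosome 9, a receptor of axon terminals, had 4.82 to 7.52 CPM in vehicle and 5.09 to 8.06 CPM in AM6545 libraries (log2 fold change 0.10, 95% interval -0.25 to 0.44). Htr5a, on chromosome 5, had 1.94 to 3.25 and 1.96 to 3.30 CPM (log2 fold change -0.02, 95% interval -0.49 to 0.44). With 41 to 85 counts per library for Htr5a, a change as large as the 0.714-fold lower bound of this interval cannot be told from none.

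**Figure D2:**
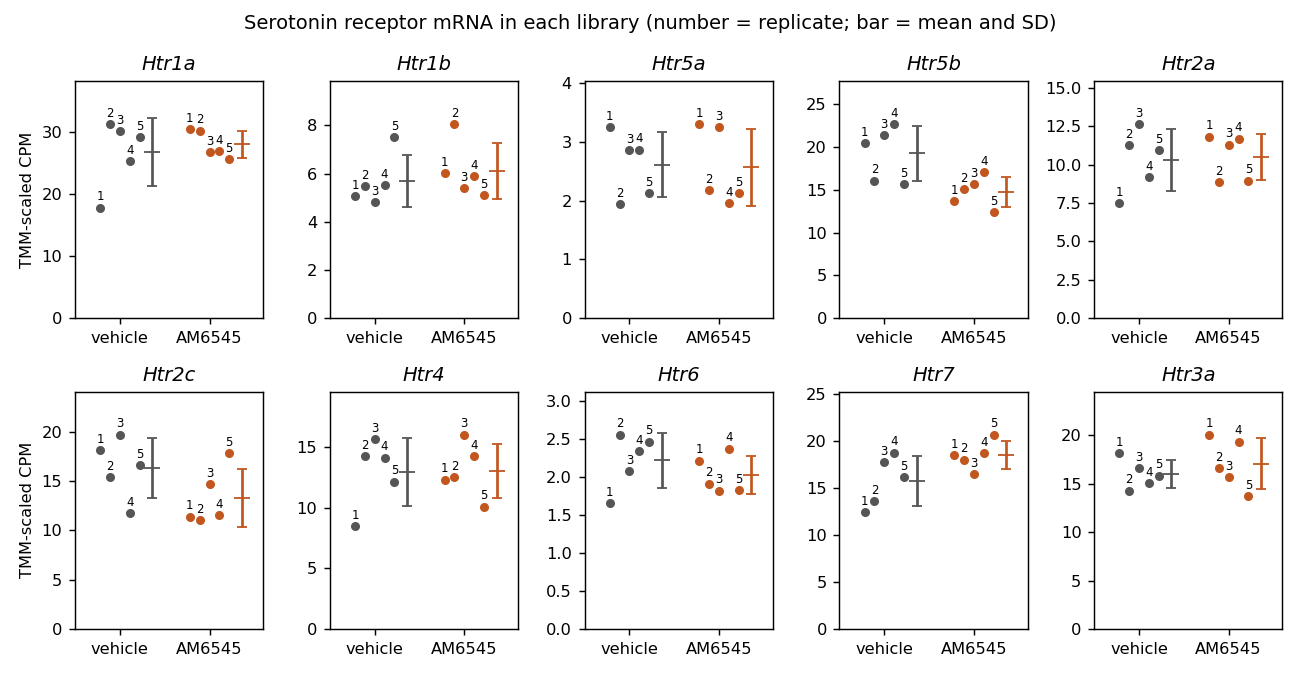
TMM-scaled CPM (linear axes from 0) of each receptor in the 5 vehicle (grey) and 5 AM6545 (orange) libraries, with the replicate number at each point and a bar for the mean and SD. The groups overlap in all 10 panels, and 3 AM6545 libraries lie below every vehicle library for Htr5b and for Htr2c.

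Among the Gq-coupled receptors, Htr2a, on chromosome 14, had 7.48 to 12.7 CPM in vehicle and 8.84 to 11.8 CPM in AM6545 libraries. Its log2 fold change was 0.03 (95% interval -0.28 to 0.35, edgeR unadjusted p = 0.827). Htr2c (ENSMUSG00000041380.14), on chromosome X (146962513 to 147197277, plus strand, GRCm38), had 18.1, 15.4, 19.7, 11.7 and 16.6 CPM in vehicle replicates 1 to 5 and 11.4, 11.0, 14.7, 11.6 and 17.8 CPM in AM6545 replicates 1 to 5. Vehicle replicate 4 was the low library of its group, and AM6545 replicates 3 and 5 lay among the vehicle values. The means were 16.3 ± 3.03 and 13.3 ± 2.92 CPM (SD, n = 5 each). The log2 fold change was -0.30 (SE 0.16), with a 95% interval of -0.63 to 0.04 (edgeR unadjusted p = 0.0788, adjusted p = 0.9998).

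Among the Gs-coupled receptors, the estimate of Htr7 was farthest from 0, with an interval that included 0. Htr7, on chromosome 19, had 12.5, 13.6, 17.8, 18.8 and 16.1 CPM in vehicle replicates 1 to 5 and 18.5, 18.04, 16.5, 18.8 and 20.7 CPM in AM6545 replicates 1 to 5. Only AM6545 replicate 5 exceeded every vehicle library, and vehicle replicates 1, 2 and 5 were below all AM6545 libraries. The log2 fold change of Htr7 was 0.23 (SE 0.12, 95% interval -0.03 to 0.49, edgeR unadjusted p = 0.0767, adjusted p = 0.9998). Htr4, on chromosome 18, had 8.50 to 15.7 and 10.1 to 16.04 CPM (log2 fold change 0.01, 95% interval -0.33 to 0.35). Htr6, on chromosome 4, had 1.65 to 2.56 and 1.82 to 2.37 CPM (log2 fold change -0.12, 95% interval -0.54 to 0.29). For Htr3a, the channel subunit on chromosome 9, the vehicle values were 14.3 to 18.2 CPM and the AM6545 values 13.8 to 20.1 CPM, with AM6545 replicates 1 and 4 above every vehicle library (log2 fold change 0.10, 95% interval -0.16 to 0.35, edgeR unadjusted p = 0.431).

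**Figure D3:**
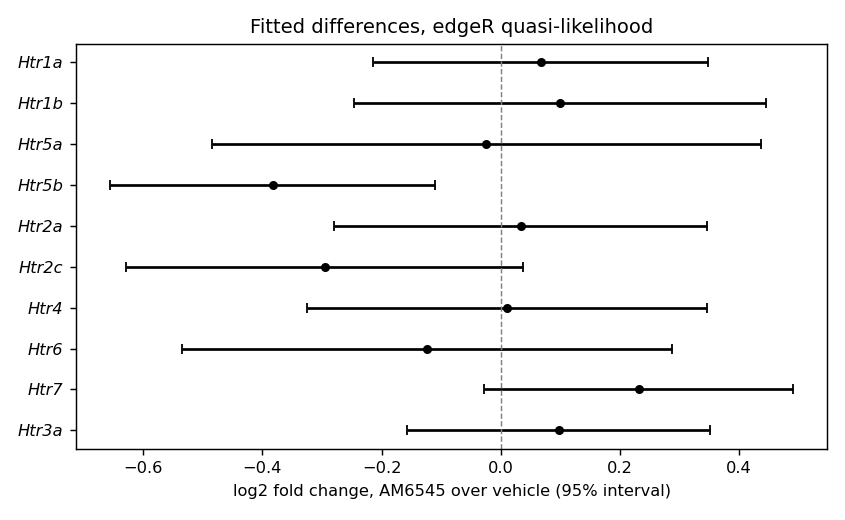
Fitted log2 fold change of AM6545 over vehicle for the 10 receptors, with 95% intervals from edgeR's quasi-likelihood fit; the dashed line marks no difference. The interval of Htr5b, -0.66 to -0.11, is the only one that leaves out 0 before adjustment over all genes.

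Variation between libraries was larger than counting error for most receptors. The coefficient of variation of Htr1a in vehicle libraries was 20.5%, where counting alone would give about 4.14% at its mean count. For Htr3a it was 9.28% against 5.36%, the smallest spread of the 10 in the vehicle group, and for Htr6 16.5% against 14.3%. Vehicle replicate 1 held the lowest value of all 10 libraries for 5 receptors, namely Htr1a, Htr2a, Htr4, Htr6 and Htr7, and the highest for 0. Slc17a7 was also lowest in that library, at 632 CPM against up to 977 CPM. So was Camk2a, at 246 CPM against up to 390 CPM. Both come from a list of 8 excitatory neuron markers and were named after their values were seen. The rest of that list is not given by library here, and the list sum was 2300 to 2802 CPM over the vehicle libraries. Any part of this in the receptor values was not tested. Across the 10 libraries the receptors most alike were Htr2a and Htr4 (Pearson r = 0.777 of log2 CPM) and Htr1a and Htr2a (r = 0.742), and the least alike were Htr1b and Htr2c (r = -0.53). These values are descriptions over 10 libraries that share those low values in vehicle replicate 1.

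Htr2c was set against the mean log2 CPM of 18 choroid plexus markers, none of them a receptor of the set. This comparison was chosen with earlier results of these data known, and its p-values take no account of that. The marker mean was 1.68 in vehicle replicate 4 and 5.57 to 6.03 in the other 4 vehicle libraries, and in AM6545 replicates 1 to 5 it was 4.995, 4.01, 5.63, 3.89 and 5.83. Ttr, the transthyretin gene and the most familiar of these markers, had 41.5 CPM in vehicle replicate 4 and 564 to 4657 CPM elsewhere. Htr2c rose and fell with the marker mean, with Pearson r = 0.750 (permutation p = 0.00377, adjusted over 10 receptors 0.0377) and Spearman rho = 0.854 (permutation p = 0.00280, adjusted 0.0280) over 10 libraries. With vehicle replicate 4 and AM6545 replicate 4 removed, the 2 whose marker means lay farthest from the median, r was 0.895 (n = 8, exact permutation p = 0.000595). The relation held its direction within each group, at r = 0.912 over the vehicle and 0.851 over the AM6545 libraries (n = 5 each, given as descriptions). Leaving out any 1 library kept r between 0.727 and 0.893, but with 7 of the 10 libraries left out in turn (vehicle replicates 1, 2, 3 and 5 and AM6545 replicates 3, 4 and 5) the adjusted p rose above 0.05, to at most 0.160 (exact permutation tests).

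For the other 9 receptors, r with the marker mean lay between -0.41 for Htr7 and 0.167 for Htr2a, and 0 of the 9 had an adjusted permutation p under 0.05. The nearest by rank was Htr1b, with Spearman rho = -0.78 (permutation p = 0.0109, adjusted 0.0547) but Pearson r = -0.26 (permutation p = 0.466, adjusted 0.806). With the same 2 libraries removed, r of Htr1b was -0.80 (n = 8, exact permutation p = 0.0265, not adjusted over the receptors). Both were removed together, and the part of each in the weaker r over 10 libraries was not tested. Within the groups, r of Htr1b was -0.04 over the vehicle and -0.75 over the AM6545 libraries (n = 5 each, given as descriptions). With the marker mean as a covariate, the log2 fold change of Htr2c between AM6545 and vehicle was -0.27 (edgeR unadjusted p = 0.0385). It was -0.30 without the covariate, and the adjusted p stayed above 0.05. Vehicle replicate 4, with a marker mean of 1.68 against 3.89 to 6.03 elsewhere, weighs heavily in the covariate fit. That fit therefore cannot decide the part of choroid plexus RNA in the difference, which was not tested. Without the covariate and with 1 library left out in turn, the log2 fold change of Htr2c ran from -0.42 without AM6545 replicate 5 (edgeR unadjusted p = 0.0138) to -0.22 without vehicle replicate 3 (edgeR unadjusted p = 0.205).

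**Figure D4:**
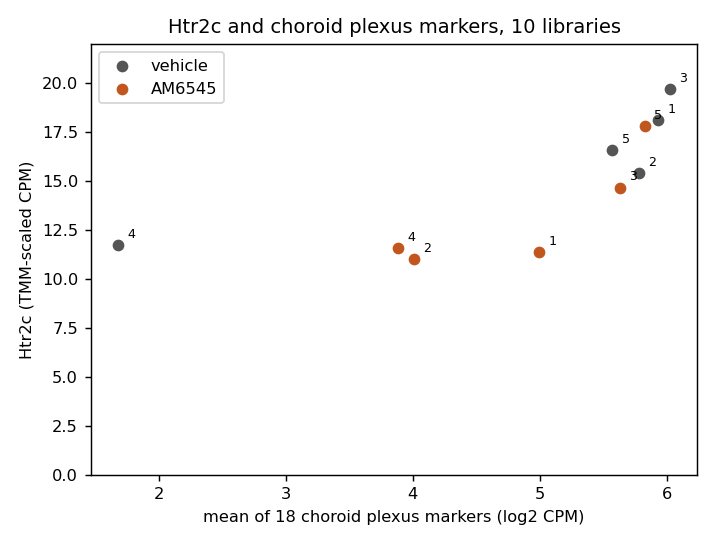
Htr2c level (TMM-scaled CPM, linear axis) against the mean log2 CPM of 18 choroid plexus markers in 10 libraries, with vehicle in grey, AM6545 in orange and the replicate number at each point. Vehicle replicate 4 lies far left at a marker mean of 1.68, and among the other libraries Htr2c is higher where the marker mean is higher.

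At the transcript level the table held 27 transcripts of the 10 receptors, of which 16 passed the filter. With edgeR's quasi-likelihood test 0 of these 16 had an adjusted p under 0.05, beside 0.00314% of all tested transcripts (1 of 31848). Receptor transcripts with an unadjusted p under 0.05 numbered 2 with edgeR and 2 with the DESeq2 Wald test, which also called 0 after adjustment, beside 1.97% and 2.74% of all transcripts. With edgeR these were Htr2c-201 and the only Htr5b transcript, both lower in AM6545, as were 0.873% of all transcripts at that threshold. The groups did not fully separate in CPM, in either direction, for any of the 16. Of all transcripts, 0.279% had every AM6545 library below every vehicle library, a share that leaves out separation in the other direction. Htr1a, Htr2a, Htr5a and Htr5b have a single transcript each in the table, and Htr1b-202 took all counts of Htr1b.

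Htr2c-201, which holds the 95-base segment printed above, had 221, 177, 257, 218 and 315 estimated counts in vehicle replicates 1 to 5 and 107, 106, 164, 123 and 88 in AM6545 replicates 1 to 5. In CPM, AM6545 replicates 1, 2, 4 and 5 were below each vehicle value and AM6545 replicate 3 was not. The means were 11.0 ± 2.30 and 5.66 ± 2.002 CPM (SD, n = 5 each). The log2 fold change was -0.96 (SE 0.24), with a 95% interval of -1.49 to -0.43 (edgeR unadjusted p = 0.00245, adjusted p = 0.9999), and -1.20 to -0.87 when 1 library was left out. The DESeq2 Wald test gave an adjusted p of 0.268.

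Htr2c-207, which lacks the segment, had 137, 134, 104, 64 and 65 estimated counts in vehicle and 180, 88, 86, 150 and 145 in AM6545 libraries. These groups overlapped broadly, and the log2 fold change was 0.32 (95% interval -0.35 to 0.99, edgeR unadjusted p = 0.313). It ranged from 0.16 without vehicle replicate 4 to 0.47 without vehicle replicate 1. As a share of all Htr2c counts, Htr2c-201 held 59.3, 54.6, 67.6, 76.3 and 80.7% in the vehicle libraries and 36.7, 49.9, 61.6, 44.1 and 24.4% in the AM6545 libraries. The shares differed by -24.4 percentage points (two-sided exact permutation p = 0.0238, where the smallest possible p is 0.00794), a comparison chosen after the values were seen and not adjusted for that choice. Of all transcripts of genes with several, 0.286% had every AM6545 share below every vehicle share, and Htr2c-201 was not among them.

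Htr2c-202 is a further full-length form. It encodes the same protein as Htr2c-201 and holds the same 95 bases, but it has an added non-coding exon. It was at 0 counts in all 5 vehicle libraries, at 13 counts in AM6545 replicate 2 and at 106 counts in AM6545 replicate 5. With both full-length transcripts summed, the vehicle share was 67.7 ± 11.0% and the AM6545 share 50.4 ± 9.93% (SD, n = 5 each), a difference of -17.3 percentage points (two-sided exact permutation p = 0.0476, also chosen after the values were seen). The summed level was 11.0 ± 2.35 and 6.81 ± 2.40 CPM (SD, n = 5 each), and AM6545 replicates 1, 2 and 4 were below each vehicle value. As a share of Htr2c-201, Htr2c-202 and Htr2c-207 alone, Htr2c-207 held 29.95 ± 10.7% in vehicle and 47.5 ± 11.2% with AM6545 (SD, n = 5 each). For that share the two-sided exact permutation p was 0.0556, and 2 AM6545 libraries were above every vehicle library. Htr2c-201 is 4747 bases long and Htr2c-207 4654 bases, so their estimates rest mainly on reads over those 95 bases and the joined exons, and the error of that assignment is not in the deposited tables. Adar, Adarb1 and Adarb2, which encode RNA editing enzymes and a relative, had log2 fold changes of 0.16, 0.16 and 0.12 (edgeR unadjusted p = 0.194, 0.111 and 0.312), and editing itself cannot be read from counts.

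**Figure D5:**
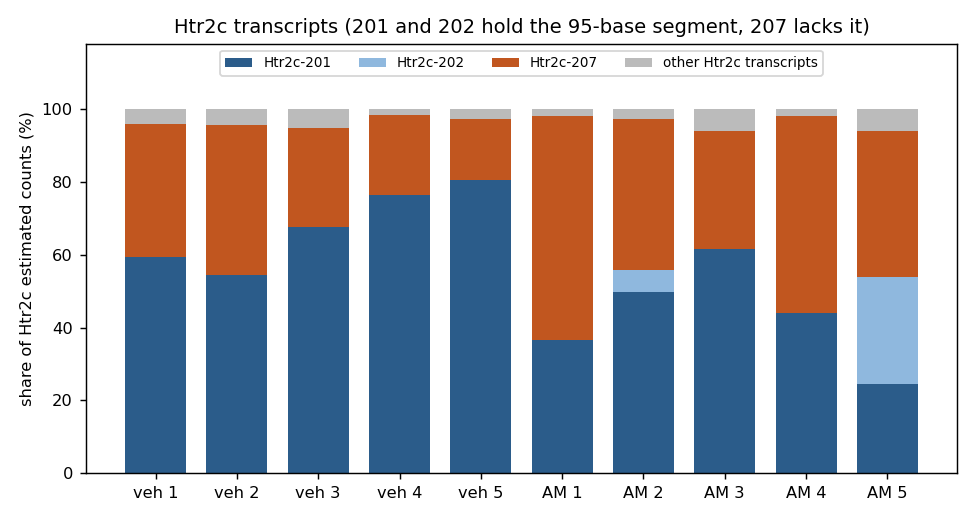
Share of Htr2c estimated counts (percent, stacked bars from 0) held by Htr2c-201, Htr2c-202, Htr2c-207 and the other Htr2c transcripts in each library. Htr2c-201 holds 54.6 to 80.7% in the vehicle and 24.4 to 61.6% in the AM6545 libraries.

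Of the other multi-transcript receptors, Htr3a-202, which lacks the 18 bases printed above, held 93.0% of the Htr3a counts and Htr3a-201 the remaining 6.97%. The vehicle share of Htr3a-202 was 93.5 ± 3.09% and the AM6545 share 92.6 ± 3.82% (SD, n = 5 each), a difference within the spread. For Htr4, 1 transcript of 4661 bases held 92.6% of the counts, and its share was 93.4 ± 2.39% and 92.2 ± 4.77%.

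Htr7 was divided between 3 main transcripts, the 448-codon form with 54.7%, the 435-codon form with 23.4% and the decay form with 18.1% of its counts. The 448-codon share was 48.7 ± 13.7% in vehicle and 57.3 ± 10.6% with AM6545 (SD, n = 5 each). For this form the log2 fold change was 0.43 (95% interval -0.21 to 1.07, edgeR unadjusted p = 0.167). It was 0.70 without vehicle replicate 4 (edgeR unadjusted p = 0.0179) and 0.27 without vehicle replicate 1 (edgeR unadjusted p = 0.306). For the 435-codon and decay forms it was 0.16 and -0.09.

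Htr6 has a short transcript of 1362 bases and a long one of 2341 bases, which encode the same protein and differ outside the coding sequence. The short one held 37.3 to 60.1% of Htr6 counts in vehicle and 0 to 36.3% in AM6545 libraries, so that it was among the 0.286% of transcripts whose shares were lower throughout, by a narrow gap. These shares rested on 33 to 58 counts per library, with 0 counts of the short form in AM6545 replicates 2 and 3. Neither form passed the test, with log2 fold changes of -1.27 for the short (edgeR unadjusted p = 0.178) and 0.38 for the long form (edgeR unadjusted p = 0.174).

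The rest of the serotonin system was described from lists of 60 genes, of which 55 were tested and 0 passed the threshold, adjusted or unadjusted, by edgeR's quasi-likelihood test, beside the 1.88% of all tested genes that passed it unadjusted. Over all tested genes 48.1% of log2 fold changes were above 0. Of 10 genes of serotonin synthesis, transport and breakdown, 8 were tested, and 7 of these had log2 fold changes above 0, with a median of 0.11. Tph2, the rate-limiting enzyme of neuronal serotonin synthesis, had 34 to 99 counts per library, and its highest value, 5.46 CPM, was in AM6545 replicate 3. Slc6a4, the serotonin transporter, had 0 to 10 counts, and Fev, a transcription factor that defines serotonergic neurons, 0 to 2 counts, both at or near the floor in most libraries. Of 32 genes for G proteins, adenylyl cyclases, phospholipases, potassium channels and other signalling partners, all were tested, 20 were above 0 and 12 below, with a median log2 fold change of 0.04 and a range of -0.19 to 0.24. Of 14 genes for receptor-binding and editing proteins, 12 were above 0 and 2 below, with a median of 0.09.

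For each receptor, the 3 genes of most similar pattern were found among all tested genes by Pearson r of log2 CPM over the 10 libraries, a description in which high values arise readily among so many genes. The values ranged from 0.873 to 0.9752. For Htr5b they were Hsd17b7, Tspan13 and Bdnf, with r of 0.930, 0.918 and 0.885. For Htr2c they were Pcp4l1, Eef2kmt and Psmc3ip, with r of 0.936, 0.926 and 0.920. For Htr1a they were Elmsan1, Pcdhga11 and Gpam, for Htr1b Nup205, Mib1 and Smc2, and for Htr5a Zfp69, Dffb and Sumf2. For Htr2a they were Slc44a2, Sidt1 and Lrrn1, for Htr4 Il1rap, Ptprj and Grm3, for Htr6 Ercc5, 2610044O15Rik8 and Sept3, for Htr7 Me1, Kif20a and Gcfc2, and for Htr3a Letm2, Slc36a1 and Slc1a6.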

How the data were processed

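Deposited were a gene table and a transcript table, both in estimated counts, for 10 libraries, which the labels' protocols describe as SMARTer cDNA from low RNA input. The submitters' processing notes name Salmon 1.5.2 and mm10. Annotation release and use of strand are not given in the sources used here. The unit was read from the values, of which 38.6% (genes) and 41.56% (transcripts) were not whole. Groups and replicate numbers came from library titles.

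Counts were rounded and fitted with edgeR 4.0.16 in R 4.3.3 over all genes (TMM, filterByExpr with a minimum count of 10 and total of 15, group alone, robust quasi-likelihood, Benjamini-Hochberg threshold 0.05, two-sided), and likewise over all transcripts. Standard errors were derived from edgeR's log2 fold change and F statistic, and 95% intervals from these with a t quantile. Alternatives used DESeq2 1.42.0 and limma 3.58.1, among others. The fitting code was tested on simulated data. Correlations used log2 CPM with a prior count of 2 and 100000 permutations, in Python 3.11.15 with scipy 1.17.1. Symbols matched 22155 of 22255 gene identifiers. Lengths, names, overlaps and sequences came from GENCODE M21 (GRCm38), whose identifiers carry the same version suffix for only 11 genes, so the models counted may differ.

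All 10 receptors were always named, with the 4 other receptor genes, Tph2, Slc6a4, 3 editing genes, pathway genes with an unadjusted p under 0.05 (none), transcripts with at least 10% of their gene and 3 genes of most similar pattern per receptor. Members and lists were chosen with earlier results of these data known, as was the choroid plexus relation. The Htr2c share comparison, and D430036J16Rik, Psmd1, Fev, Ttr, Slc17a7, Camk2a and minor transcripts, were named after their values were seen. Counting floors cover counting error only, since reads were amplified and no molecular identifiers are mentioned, so reads are not separate molecules.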

Additional observations from a re-analysis of the deposited data

Results flagged for a closer look

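Each receptor was checked in both groups of 5 for a single extreme library, 20 checks in all, of which chance alone marks about 1 in 20. Htr1b was at 7.52 CPM in vehicle replicate 5, against 4.82 to 5.53 CPM in the other 4 vehicle libraries.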

How the results depend on the processing

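For the receptors, 0 genes and 0 transcripts passed in every alternative run. Over all genes, 1 gene passed with limma-voom, and 0 to 1 when 1 library was left out. Over all transcripts, 11 passed with the DESeq2 Wald test, 0 with at least 10 counts in every library, 0 with the choroid plexus covariate (added after seeing the data) and 0 to 4 when 1 library was left out; the cause was not tested. The number of receptors related to the choroid plexus markers was 1, and 0 to 1 when 1 library was left out. Replicate numbers are shared between the groups, but same-numbered libraries deviated together with correlations of only -0.19 to 0.39, and 2 of 5 correlated best with their own number. With the replicate number as a block, 0 genes and 0 transcripts passed.

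Signs of the estimates nearest 0 turned. With limma-voom, log2 fold changes were -0.0253 for Htr1a, -0.0288 for Htr1b, -0.0028 for Htr2a and -0.035 for Htr4, and with the choroid plexus covariate that of the Htr7 decay form was 0.0249. Leaving out 1 library in turn gave -0.0475 to 0.1305 for Htr1a, -0.0196 to 0.2219 for Htr1b, -0.061 to 0.1166 for Htr2a, -0.1076 to 0.0892 for Htr4, -0.1444 to 0.0669 for Htr5a, -0.2856 to 0.088 for the Htr7 decay form and -0.0467 to 0.2843 for the Htr7 435-codon form. Htr2c, Htr3a, Htr5b, Htr6 and Htr7 kept their sign in all 9 alternative settings and with each of 10 libraries left out, with log2 fold changes then of 0.02 to 0.17 for Htr3a, -0.21 to -0.07 for Htr6 and 0.16 to 0.30 for Htr7. With the longest transcript as length, only Htr6 and Htr1b changed places in the order. A floor of 5 counts put 0 receptors at or near it.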
